A study of Mus musculus with 9 samples.

Results

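Integrins, cadherins and claudins are the surface proteins by which cells hold to the matrix and to each other. All genes were taken whose symbol in the platform annotation starts with Itga, Itgb, Cdh and a digit, Pcdh or Cldn, with Itgae left out. Of 47 such genes with a named probe, all 47 had a probe detected at p under 0.05 on 4 or more of the 9 arrays, and they were 47 of the 10096 genes tested. A RefSeq gene table (GRCm38.p6) lists 159 protein-coding mouse genes whose symbols meet the rule, and those without a named probe, such as Itgb3, Itgam, Itga4, Cdh2 and Cdh11, were not analysed here. Expression was measured on single-colour Illumina arrays in what the labels call the tumour environment of B16, a melanoma line transplanted into mice of its own strain. The 4 PC61 samples came from 8-week-old C57/Bl6 mice given PC61, an antibody against the CD25 protein that is used to remove regulatory T cells. The 5 PBS samples came from mice of the same strain and age given phosphate-buffered saline in its place, and in both groups the tissue was taken on day 14 after inoculation. Neither the antibody dose and schedule nor the site of inoculation is given in the labels. The comparison of PC61 with PBS tissue asks how the tumour environment differs when regulatory T cells are depleted. The samples are whole tissue, so tumour cells and host cells of several kinds can contribute to each value, and fewer cells of a type cannot be told apart from less RNA per cell.

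Integrins are pairs of an alpha and a beta chain that bind matrix proteins or counter-receptors and link them to actin through talin and kindlin, or to keratin filaments in hemidesmosomes. Classical cadherins bind their like on the neighbouring cell and hold actin through catenins, and protocadherins are related proteins best known from the nervous system. Claudins seal the space between epithelial or endothelial cells in tight junctions. In skin, E-cadherin, P-cadherin, claudins and the laminin-binding integrins mark keratinocytes, whereas beta 2 integrins mark leukocytes, VE-cadherin and claudin 5 mark endothelium, and melanoma cells carry alpha v integrins. The members were grouped by such textbook main sources. To epithelium, leukocyte with platelet, endothelium and melanoma were added muscle with mesenchyme, and a group of broad or neural genes for all others. Many members have more than 1 source, so a group names the best known source and not a measured one.

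Values are log2 intensities after background correction and quantile normalization, differences are PC61 minus PBS, and a gene was said to have risen or fallen where its Benjamini-Hochberg adjusted p over all genes was under 0.05. Of the 47 members 21 rose and 5 fell in PC61, and 21 did not pass. Over all genes tested 26.5% passed, 15.4% as higher and 11.2% as lower. The median difference was 0.63 over the members and -0.05 over all genes. Before adjustment 32 members had a p under 0.05. The groups did not overlap in 18 members, against 21.2% of all genes. By origin, of 16 epithelium members 11 rose and 0 fell (median 1.70), of 8 muscle and mesenchyme members 4 rose (0.93), of 5 endothelium members 2 rose (-0.00), and of 4 leukocyte and platelet members 1 rose (0.17). Both melanoma members fell (-0.96), and of the 12 broad or neural members 3 rose and 3 fell (-0.51). Differences between these groups of genes were not tested. Probes had names where they met a filter at a detection p under 0.01 on 4 PBS or 3 PC61 arrays. Cdh6, Itga2b, Itga7, Itgb1bp2, Itgb2, Itgb6 and Pcdhb22 passed it through PC61 alone and Cdh19 and Cldn34c1 through PBS alone, and a probe that passes through 1 group only is the brighter there by that choice. Among the 38 members that passed it in both groups, 17 rose and 3 fell.

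**Figure D1:**
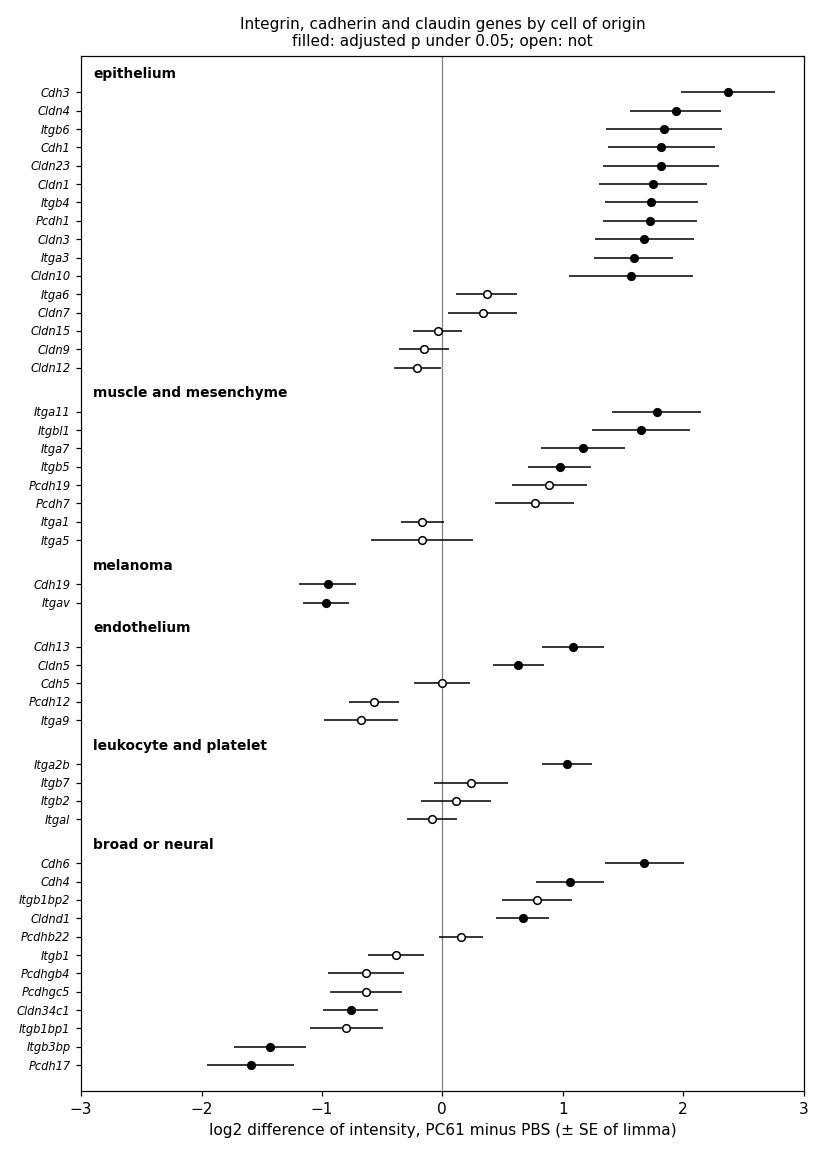
The log2 difference of intensity between 4 PC61 and 5 PBS arrays (horizontal axis, PC61 minus PBS, bars are the standard error of limma) is plotted for the 47 members by cell of origin, with filled points for an adjusted p under 0.05. The 11 filled epithelium points lie between 1.57 and 2.37, and both melanoma points lie near -0.96.

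Each array detected between 18572 and 20742 probes. PC61 replicate 4 stood apart, since 14 melanocyte markers averaged -4.50 there on the log2 scale, with the PBS mean set to 0, and from -1.63 to -0.32 on PC61 replicates 1 to 3. Without it 19 members rose and 4 fell, while 19.1% of all genes passed. The counts depended more on PC61 replicate 3, without which 7 members rose and 3 fell and 7.46% of all genes passed. Of the 26 members past the threshold, 10 kept their call without any 1 array, and 16 lost it without PC61 replicate 3, with adjusted p-values from 0.0519 to 0.109 and 0 changes of sign. The melanocyte marker Dct was detected on every array, and Tyr, Mc1r and Slc45a2 on 3 of the 4 PC61 arrays. That same-group samples came from separate mice is given by a replicate number alone, so the p-values speak only for the spread among these samples, which may be technical.

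The classical cadherins of epithelium were higher on every PC61 array than on any PBS array. Cdh3, P-cadherin of basal keratinocytes and hair follicles, had log2 intensities of 9.30, 8.52, 8.49 and 9.63 in PC61 replicates 1 to 4, against 6.94, 6.57, 7.56, 5.46 and 6.55 in PBS replicates 1 to 5. It rose 5.17-fold, a log2 difference of 2.37 ± 0.39 (SE, adjusted p = 0.0122), the largest among the members. Cdh1, E-cadherin, the main adhesion protein between epithelial cells and also of normal melanocytes with keratinocytes, had 9.86, 9.19, 10.21 and 10.87 in PC61, against 9.07, 7.78, 9.06, 7.09 and 8.07 in PBS. PBS replicates 1 and 3 came close to the lowest PC61 value, that of replicate 2. Cdh1 rose 3.53-fold, by 1.82 ± 0.44 (SE, adjusted p = 0.0181). Without PC61 replicate 3 its difference was 1.76 (adjusted p = 0.0562), whereas Cdh3 kept its call without any 1 array. Cdh3 and Cdh1 are neighbouring genes on mouse chromosome 8 in GRCm38.p6. Pcdh1, a protocadherin known from human airway epithelium, had 10.03, 9.16, 9.97 and 9.50 in PC61, against 8.32, 7.14, 8.77, 6.95 and 8.53 in PBS. All PC61 values were above all PBS values, and the difference was 1.72 ± 0.39 (SE, adjusted p = 0.0152). Without PC61 replicate 3 it was 1.62 (adjusted p = 0.0519).

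Of the 9 claudins placed in epithelium 5 rose and 4 did not pass. Cldn4 and Cldn3, tight junction claudins that are neighbouring genes on chromosome 5 in GRCm38.p6, rose together. Their promoter windows from RefSeq are shown with that of Cldn1, which rose too, and of Itgav, which fell. Each runs from 250 bases before the annotated start to 50 after it, on the gene's own strand 5′ to 3′. The capitals mark the letters CAGGTG on either strand (CACCTG on the printed one), an E-box that the Snail, Slug and Zeb repressors are known to bind. No other motif was searched.
Cldn4 (chr5:134946885-134947184, minus strand): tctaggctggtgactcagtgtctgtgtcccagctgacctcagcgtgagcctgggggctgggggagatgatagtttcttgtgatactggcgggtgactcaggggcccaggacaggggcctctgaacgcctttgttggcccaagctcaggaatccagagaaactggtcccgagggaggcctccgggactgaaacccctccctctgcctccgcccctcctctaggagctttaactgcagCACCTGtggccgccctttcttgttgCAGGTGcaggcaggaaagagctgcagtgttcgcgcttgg
Cldn3 (chr5:134985964-134986263, plus strand): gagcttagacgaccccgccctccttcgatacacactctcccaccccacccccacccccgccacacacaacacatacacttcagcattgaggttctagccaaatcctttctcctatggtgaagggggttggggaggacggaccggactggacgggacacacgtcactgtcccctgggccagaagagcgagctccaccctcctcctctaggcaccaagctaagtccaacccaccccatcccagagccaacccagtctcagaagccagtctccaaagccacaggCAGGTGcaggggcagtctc
Cldn1 (chr16:26371790-26372089, minus strand): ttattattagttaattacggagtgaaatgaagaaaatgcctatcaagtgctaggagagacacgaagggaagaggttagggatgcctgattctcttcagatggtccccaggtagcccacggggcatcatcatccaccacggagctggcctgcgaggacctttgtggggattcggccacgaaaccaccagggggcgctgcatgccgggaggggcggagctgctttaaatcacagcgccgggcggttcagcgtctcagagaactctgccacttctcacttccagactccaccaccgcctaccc
Itgav (chr2:83724147-83724446, plus strand): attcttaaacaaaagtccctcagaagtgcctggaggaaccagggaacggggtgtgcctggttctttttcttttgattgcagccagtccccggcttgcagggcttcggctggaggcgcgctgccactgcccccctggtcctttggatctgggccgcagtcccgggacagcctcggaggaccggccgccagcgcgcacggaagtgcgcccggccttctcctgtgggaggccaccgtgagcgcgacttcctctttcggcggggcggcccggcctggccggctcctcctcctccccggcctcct
The first base of the motif is at positions -14 and 12 in the Cldn4 window, counted from 1 at the annotated start, and at position 32 in the Cldn3 window. Of all 32851 windows of this length 20.2% hold it, and 22.6% of the 27025 genes hold it in at least 1 window. Of the 28 members with a window 9 hold it. They are Cldn3, Cldn4, Itga3 and Itgb6 of the 6 epithelium members that rose and have a window. Of the members that rose outside epithelium Itga11 and Itgb5 hold it, while Cdh6, Cldn5, Cldnd1, Itga2b and Itgbl1 do not. Of the 11 members that did not pass 3 hold it (Cldn7, Itga9 and Pcdh7), and 0 of the 4 that fell. The motif was chosen with the results known. A match is a description of letters and not a measured site.

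Cldn4 had 12.33, 11.68, 12.01 and 12.74 in PC61, against 10.67, 10.05, 11.11, 9.03 and 10.39 in PBS. It rose 3.83-fold, by 1.94 ± 0.38 (SE, adjusted p = 0.0122). Cldn3 had 8.05, 7.56, 8.55 and 8.31 in PC61, against 7.22, 6.48, 7.33, 5.18 and 6.01 in PBS, and rose by 1.68 ± 0.41 (SE, adjusted p = 0.0185). Cldn1, which forms the barrier of the epidermis against water loss in mice, had 8.90, 8.11, 8.78 and 10.38 in PC61, against 7.81, 7.10, 7.63, 6.20 and 7.73 in PBS. In these 3 genes no PC61 array fell below a PBS array, and PBS replicate 4 was the lowest of all arrays. Cldn1 rose by 1.75 ± 0.45 (SE, adjusted p = 0.0209). Cldn23, a claudin of epithelia including skin, had 8.49, 7.61, 8.33 and 9.72 in PC61, against 7.49, 5.83, 7.63, 5.83 and 6.82 in PBS. Its groups touched, since PC61 replicate 2 lay just below PBS replicate 3, and it rose by 1.81 ± 0.48 (SE, adjusted p = 0.0229). Cldn10, a claudin that forms ion pores in kidney and glands, had 9.13, 8.77, 9.42 and 9.87 in PC61, against 8.89, 8.37, 8.07, 5.84 and 7.47 in PBS, where replicate 4 lay far below the others and replicate 1 above the lowest PC61 array. It rose by 1.57 ± 0.52 (SE, adjusted p = 0.0445). Without PC61 replicate 3 the adjusted p was 0.0592 for Cldn3, 0.0537 for Cldn1, 0.058 for Cldn23 and 0.106 for Cldn10. That of Cldn23 was 0.0501 without PBS replicate 2 and 0.0507 without PBS replicate 4, and that of Cldn10 lay between 0.055 and 0.0923 without PC61 replicate 1 or 4 or PBS replicate 2, 3 or 5. Cldn4 kept its call without any 1 array.

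The other 4 claudins of the group did not pass. Cldn7, a claudin of many simple epithelia, was at 0.33 ± 0.28 (SE, adjusted p = 0.396), with 6.13, 6.66, 5.94 and 5.82 in PC61, against 5.59, 5.60, 5.15, 6.35 and 6.33 in PBS. Its highest PC61 value came from replicate 2 and its highest PBS value from replicate 4, the arrays that were lowest in their group for Cldn3 and Cldn4. Cldn12, a widely expressed claudin, was at -0.21 (adjusted p = 0.44), Cldn9, known from the inner ear, at -0.15 (adjusted p = 0.609), and Cldn15, a claudin of intestine, at -0.04 (adjusted p = 0.899). Cldn15 changed sign with cyclic loess normalization. All 4 were detected on all 9 arrays.

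Of the integrin chains in the epithelium group 3 rose and Itga6 did not pass. Itga3, the alpha 3 chain that binds laminin with beta 1 in the basement membrane, had 8.47, 8.11, 8.56 and 9.45 in PC61, against 7.35, 7.12, 7.57, 6.11 and 7.15 in PBS. Every PC61 array was above every PBS array, and the difference was 1.59 ± 0.33 (SE, adjusted p = 0.0135). Itgb4, the beta 4 chain of hemidesmosomes, had 10.09, 9.40, 10.74 and 11.21 in PC61, against 8.81, 8.38, 9.49, 7.96 and 8.47 in PBS. PC61 replicate 2 lay just below PBS replicate 3, and the gene rose 3.33-fold, by 1.74 ± 0.38 (SE, adjusted p = 0.0142). Itgb6, whose product with alpha v activates TGF-beta in epithelia, had 7.08, 6.31, 7.68 and 8.56 in PC61, against 6.18, 5.35, 6.59, 4.63 and 5.10 in PBS. It was detected on 4 of the 5 PBS arrays, PC61 replicate 2 was below PBS replicate 3, and it rose by 1.84 ± 0.48 (SE, adjusted p = 0.0222). The adjusted p of Itgb6 was 0.0653 without PC61 replicate 3 and 0.0541 without PBS replicate 5. Itga6, the alpha 6 chain that pairs with beta 4, had 5.53, 5.83, 6.63 and 6.68 in PC61, against 5.89, 6.0, 5.65, 5.68 and 5.76 in PBS. PC61 replicates 3 and 4 were above all PBS arrays and PC61 replicate 1 was below them, and the difference of 0.37 ± 0.25 (SE, adjusted p = 0.288) did not pass and was -0.13 with array weights.

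**Figure D2:**
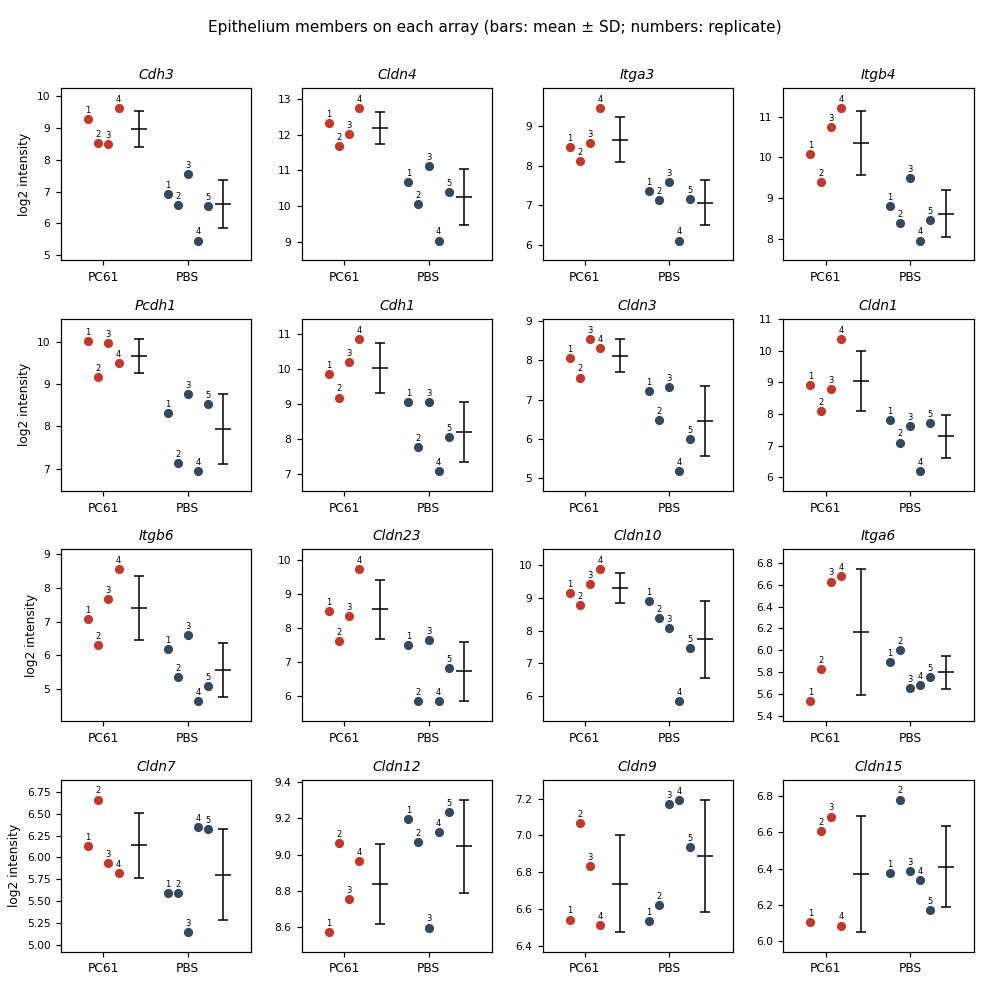
Log2 intensity (vertical axes, scaled per gene) of the 16 epithelium members is shown on each of 4 PC61 and 5 PBS arrays, with replicate numbers above the points and bars for the mean ± SD. In the first 11 genes, those that rose, the PC61 points lie high, PBS replicate 4 is the lowest PBS point in 10 of 11, and PC61 replicate 4 is the highest PC61 point in 9 of 11.

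The 11 epithelium genes that rose had a shared order of arrays. PC61 replicate 4 was the highest PC61 array for 9 of them and PC61 replicate 2 the lowest for 10, and PBS replicate 4 was the lowest PBS array for 10. The keratinocyte markers moved in the same samples. Of 14 listed markers 12 were measured and 10 of them rose (median 1.95), against 15.4% of all genes tested. Sfn was at 2.52 ± 0.53 (SE, adjusted p = 0.0137) and Krt5 at 2.40 ± 0.56 (SE, adjusted p = 0.0166). The mean of the 12 markers relative to the PBS mean ran from 0.87 to 2.69 on the PC61 arrays and -1.47 to 0.94 on the PBS arrays. PC61 replicate 2 and PBS replicate 4 were again the lowest of their groups, and PC61 replicate 4 the highest. PC61 replicate 2, at 0.87, lay below PBS replicate 3, at 0.94. The mean of the 16 members was 0.83 and 0.46 on these arrays. The order was not particular to epithelium. Of the 4 muscle and mesenchyme members that rose, PC61 replicate 2 was the lowest PC61 array in 4. PBS replicate 4 was the lowest PBS array in 3 of them and PC61 replicate 4 the highest PC61 array in 2. The skeletal muscle marker mean was lowest in PC61 on replicate 2 (1.22) and highest on replicate 4 (2.80). In PBS it was lowest on replicate 4 (-0.85). The part of the keratinocyte share of the tissue in the result was not tested.

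**Figure D3:**
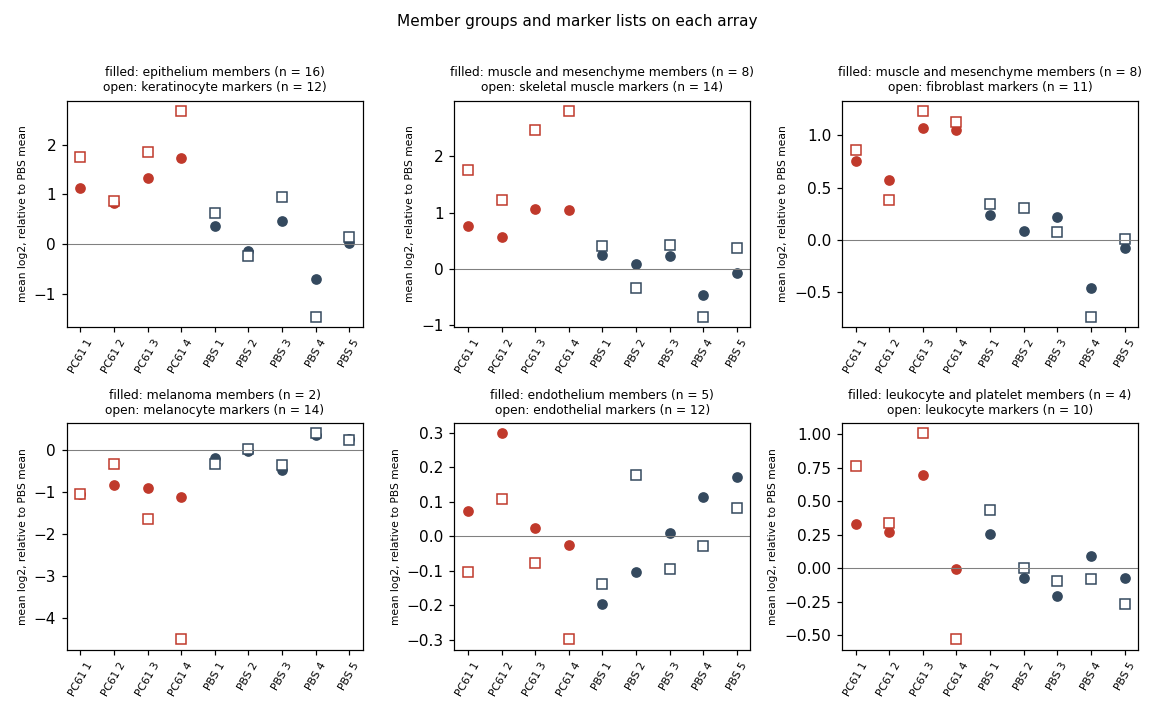
The mean log2 intensity relative to the PBS mean (vertical axes) of a group of members (filled) and of a marker list (open) is plotted for each array, PC61 first. Epithelium members and keratinocyte markers are both lowest on PBS replicate 4 and highest on PC61 replicate 4, and the melanocyte markers on PC61 replicate 4 lie at -4.50 while the melanoma members there lie at -1.10.

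In the muscle and mesenchyme group 3 of 5 integrin chains rose, Itga11, Itgb5 and Itga7, as did Itgbl1, while Itga1 and Itga5 did not pass. Itga11, a collagen receptor chain of fibroblasts, had 8.38, 7.81, 9.46 and 8.89 in PC61, against 7.70, 6.97, 6.997, 6.20 and 6.42 in PBS. No PC61 array was below a PBS array, and it rose 3.43-fold, by 1.78 ± 0.37 (SE, adjusted p = 0.0134). Itgbl1, a secreted protein that resembles a beta chain but lacks its membrane part, had 8.10, 7.29, 8.65 and 9.32 in PC61, against 7.27, 6.61, 6.92, 5.74 and 6.92 in PBS. The lowest PC61 value, of replicate 2, was only just above the highest PBS value, of replicate 1, and the difference was 1.65 ± 0.40 (SE, adjusted p = 0.0185). Itgb5, the beta 5 chain of a vitronectin receptor with alpha v, had 8.53, 8.46, 9.10 and 9.27 in PC61, against 8.28, 7.58, 8.38, 7.60 and 7.49 in PBS, again with no overlap, and rose by 0.97 ± 0.26 (SE, adjusted p = 0.024). Itga7, the laminin receptor chain of skeletal muscle, had 6.78, 6.47, 7.11 and 6.49 in PC61, against 5.52, 6.46, 6.11, 4.64 and 4.98 in PBS, where it was detected on 4 of 5 arrays. Replicate 2 gave nearly the same value in both groups, while PBS replicates 4 and 5 were low, and it rose by 1.17 ± 0.35 (SE, adjusted p = 0.0326), or by 0.75 with a larger background offset of 50.

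Itga11 kept its call without any 1 array. Without PC61 replicate 3 the adjusted p was 0.0585 for Itgbl1, 0.0734 for Itgb5 and 0.0966 for Itga7. That of Itgb5 was between 0.0537 and 0.0593 without PBS replicate 2, 4 or 5, and that of Itga7 between 0.0569 and 0.078 without PC61 replicate 1 or PBS replicate 1, 4 or 5. The protocadherins Pcdh19 and Pcdh7 were at 0.89 ± 0.31 (SE, adjusted p = 0.0549) and 0.77 ± 0.33 (SE, adjusted p = 0.0995). Itga1, a collagen receptor chain, was at -0.17 (adjusted p = 0.506). Itga5, the fibronectin receptor chain, had 9.60, 10.11, 8.82 and 7.48 in PC61, against 8.87, 9.29, 9.29, 9.26 and 9.15 in PBS. The PBS values were close together, while those of PC61 lay on both sides of them, with replicates 1 and 2 high and replicate 4 low. The difference was -0.17 (adjusted p = 0.789) and 0.34 without PC61 replicate 4 (adjusted p = 0.364). All 14 measured skeletal muscle markers rose (median 2.10), against 15.4% of all genes tested, led by Ryr1 (2.32) and Ckm (2.49). The muscle list mean was 1.22 to 2.80 on the PC61 arrays and -0.85 to 0.42 on the PBS arrays. Of 11 measured fibroblast markers 5 rose (median 0.96), against the same 15.4%, among them Mmp2 (1.96) and Pdgfrb (1.004). The fibroblast list mean was 0.38 to 1.24 on the PC61 arrays and -0.74 to 0.34 on the PBS arrays. The part of muscle and fibroblasts in these results was not tested.

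Both genes placed with melanoma fell. Cdh19 had a named probe through PBS alone and is the brighter there by that choice, while Itgav was named through both groups. Itgav, the alpha v chain that pairs with several beta chains, had 7.37, 7.64, 7.69 and 7.56 in PC61, against 8.34, 8.48, 8.26, 9.004 and 8.60 in PBS. The PC61 arrays were close together and all below the lowest PBS array, and the gene was 1.96-fold lower in PC61, with a difference of -0.97 ± 0.19 (SE, adjusted p = 0.0124) that passed without any 1 array. Within PC61 the lowest Itgav value was on replicate 1. The lowest Cdh19 value, below detection, was on replicate 4, the array with the lowest melanocyte marker mean. Cdh19, a cadherin of neural crest and Schwann cell precursors, was below the detection limit on all 4 PC61 arrays (4.61, 4.77, 4.56 and 4.29) and detected on 4 of 5 PBS arrays (5.34, 5.54, 4.86, 5.78 and 6.01). At the offset of 16 the mean of the 5 PBS arrays was 1.56-fold above the lowest detected signals of the PC61 arrays. That ratio is given for this offset only and takes no account of spread. The fitted difference was -0.95 ± 0.24 (SE, adjusted p = 0.0194), with an adjusted p of 0.0557 without PC61 replicate 3. With a background offset of 50 the fitted difference was -0.48. Of 18 listed melanocyte markers 14 were measured, of which 4 fell, 0 rose and 10 did not pass (median -1.85). Of all genes tested 11.2% fell. Mitf (-1.29) and Tyr (-1.99) were among the markers that fell. The differences of the 14 markers ran from -2.45 for Slc45a2 to -0.89 for Dct, so those that did not pass were lower in PC61 too. The marker mean ran from -4.50 to -0.32 on the PC61 arrays and -0.35 to 0.41 on the PBS arrays. Of 8 listed Schwann cell and nerve markers 4 were measured, where Ngfr was at 0.88 ± 0.28 (SE, adjusted p = 0.0408) and Mbp at -1.55 ± 0.53 (SE, adjusted p = 0.0513). The part of the melanoma share of the tissue was not tested.

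Of the endothelial members Cldn5 and Cdh13 rose, while Cdh5, Pcdh12 and Itga9 did not pass. Cdh5, VE-cadherin, the junction protein that defines endothelium, had 7.62, 7.97, 7.46 and 7.48 in PC61, against 7.16, 7.55, 7.39, 7.94 and 8.14 in PBS, with groups that overlapped and a difference of -0.00 ± 0.23 (SE, adjusted p = 0.992). Its sign changed with cyclic loess and in several other settings. Cldn5, the main claudin of endothelial tight junctions, had 7.35, 7.36, 7.33 and 7.02 in PC61, against 6.29, 6.98, 7.06, 6.42 and 6.42 in PBS. PBS replicate 3 lay above PC61 replicate 4 and the other PC61 arrays above all PBS arrays, and Cldn5 rose by 0.63 ± 0.21 (SE, adjusted p = 0.0461). That call was lost without PC61 replicate 1, 2 or 3 or PBS replicate 1, 4 or 5, at adjusted p-values from 0.0669 to 0.109. Cdh13, T-cadherin, a lipid-anchored cadherin of vessels and muscle that binds adiponectin, had 7.74, 7.30, 7.90 and 8.51 in PC61, against 7.20, 6.41, 6.98, 6.48 and 6.81 in PBS. All PC61 arrays were above all PBS arrays, and it rose by 1.09 ± 0.26 (SE, adjusted p = 0.0175), with an adjusted p of 0.0537 without PC61 replicate 3. Pcdh12, a protocadherin of endothelial cells, was at -0.57 ± 0.21 (SE, adjusted p = 0.0658) and Itga9, an integrin chain of lymphatic valves and other tissues, at -0.68 ± 0.30 (SE, adjusted p = 0.116). Of 16 listed endothelial markers 12 were measured, with a median of -0.07. Tek rose (0.79, adjusted p = 0.0444) and Emcn fell (-0.68, adjusted p = 0.0428), and the list mean ran from -0.30 to 0.11 on the PC61 arrays and -0.14 to 0.18 on the PBS arrays.

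Integrins of leukocytes did not pass. Itgal and Itgb2, the 2 chains of the LFA-1 adhesion receptor, were at -0.09 ± 0.21 (SE, adjusted p = 0.782) and 0.11 ± 0.29 (SE, adjusted p = 0.796). Itgal had 5.67, 5.69, 6.17 and 5.38 in PC61, against 5.97, 6.18, 5.63, 5.64 and 5.64 in PBS, and the ranges overlapped almost in full. The Itgb2 probe was dim, detected on 3 of 4 PC61 and 3 of 5 PBS arrays, with 5.34, 5.68, 5.83 and 4.66 in PC61, against 5.43, 4.68, 4.97, 5.84 and 5.39 in PBS. Itgb7, which pairs with alpha 4 in gut homing, was at 0.24 ± 0.31 (SE, adjusted p = 0.583), with 7.21, 7.02, 7.81 and 6.34 in PC61, against 7.42, 6.82, 6.44, 7.14 and 6.45 in PBS. All 3 were highest on PC61 replicate 3 and lowest on PC61 replicate 4 within their group, and each changed sign in at least 1 setting. Among 10 measured leukocyte markers 0 rose and 0 fell by limma, while 26.5% of all genes tested passed. Their median was 0.32, with 1 at an unadjusted p under 0.05. S100a8 was at 1.57 ± 0.54 (SE, adjusted p = 0.0509) and S100a9 at 0.64 ± 0.31 (SE, adjusted p = 0.139). The list mean ran from -0.53 to 1.01 on the PC61 arrays and -0.27 to 0.44 on the PBS arrays, with PC61 replicate 3 the highest and PC61 replicate 4 the lowest of all 9. Itga2b, the alpha chain of the platelet fibrinogen receptor, was the 1 member of the group that rose. It was detected on 4 PC61 and 2 of 5 PBS arrays, with 5.91, 5.51, 5.80 and 6.40 in PC61, against 5.01, 4.83, 4.94, 4.55 and 5.03 in PBS, so every PC61 array was above every PBS array. Its difference was 1.03 ± 0.21 (SE, adjusted p = 0.0126), or 0.58 with a background offset of 50. Of 5 measured platelet markers Gp9 (2.72), Gp5 (1.33) and Gp1bb (1.49) rose, against 15.4% of all genes tested. Gp5, detected on 2 of 5 PBS arrays, and Gp1bb and Selp, each on 3, had a named probe through PC61 alone, as had Itga2b, and among the 2 markers named through both groups Gp9 rose while Pf4, a platelet granule chemokine, was at 0.25 (adjusted p = 0.652). The list mean ran from 0.81 to 1.74 on the PC61 arrays and -0.78 to 0.52 on the PBS arrays.

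Among the broad or neural genes Cdh6, Cdh4 and Cldnd1 rose and Itgb3bp, Pcdh17 and Cldn34c1 fell. Cdh6, a cadherin of kidney and the early neural crest, had 6.17, 5.93, 6.37 and 7.60 in PC61, against 5.38, 4.52, 5.01, 4.53 and 4.75 in PBS, where it was detected on 2 of 5 arrays. The groups were apart, with PC61 replicate 4 highest, and it rose by 1.68 ± 0.33 (SE, adjusted p = 0.0122), or by 1.02 with a background offset of 50. Cdh4, R-cadherin of retina and brain, had 7.03, 6.74, 7.75 and 7.97 in PC61, against 6.76, 6.01, 6.58, 5.99 and 6.21 in PBS. PC61 replicate 2 lay below PBS replicate 1, and the difference was 1.06 ± 0.28 (SE, adjusted p = 0.0232). Pcdh17, a protocadherin of brain, had 5.86, 6.56, 5.82 and 4.74 in PC61, against 7.19, 7.31, 6.62, 7.63 and 7.94 in PBS, with all PC61 arrays below all PBS arrays and 3 of 4 of them above the detection limit. It was 3.02-fold lower in PC61, with a difference of -1.59 ± 0.36 (SE, adjusted p = 0.0149). Itgb3bp, which shares only the start of its symbol with the integrins and encodes the centromere protein CENP-R, had 7.78, 7.92, 7.11 and 6.30 in PC61, against 8.84, 8.83, 8.73, 8.56 and 8.60 in PBS. The PBS values were close together, all PC61 values were below them and replicate 4 was lowest, and the gene fell, with a difference of -1.43 ± 0.30 (SE, adjusted p = 0.0135).

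Cldn34c1, a claudin-like gene of a multigene family whose members 1 probe may not separate, had 4.97, 5.07, 4.62 and 4.47 in PC61, against 5.73, 5.49, 4.95, 5.80 and 5.76 in PBS. It was detected on 2 of 4 PC61 and 4 of 5 PBS arrays, the groups overlapped, and the difference was -0.76 ± 0.23 (SE, adjusted p = 0.0313). Its call was lost with a background offset of 50 (-0.39, adjusted p = 0.0651) and without any 1 array other than PC61 replicate 2 or PBS replicate 3 (adjusted p from 0.0502 to 0.0877). Cldnd1, a claudin-domain protein, had 9.88, 9.60, 9.08 and 9.38 in PC61, against 8.62, 8.44, 8.98, 8.86 and 9.19 in PBS, where replicate 5 was above PC61 replicate 3. The difference was 0.67 ± 0.22 (SE, adjusted p = 0.0449), and it lost its call with 75th percentile scaling (adjusted p = 0.0829) and without each of the 9 arrays (adjusted p from 0.0524 to 0.12). Cdh4 lost its call without PC61 replicate 3 or PBS replicate 2, 4 or 5 (adjusted p from 0.0521 to 0.0733), whereas Cdh6, Pcdh17 and Itgb3bp kept theirs without any 1 array. Itgb1, the common beta 1 chain, was at -0.38 ± 0.23 (SE, adjusted p = 0.227), with 6.20, 6.25, 6.14 and 6.52 in PC61, against 6.61, 6.37, 6.21, 7.30 and 6.81 in PBS. The adaptors Itgb1bp2 (melusin of muscle) and Itgb1bp1 were at 0.79 ± 0.29 (SE, adjusted p = 0.0647) and -0.80 ± 0.30 (SE, adjusted p = 0.0722). The clustered protocadherins Pcdhgc5, Pcdhgb4 and Pcdhb22 were at -0.63, -0.63 and 0.15, with adjusted p-values of 0.134, 0.153 and 0.543. Gamma cluster transcripts share their last exons, so a probe in them cannot tell the genes apart and the identity of the first pair is uncertain.

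**Figure D4:**
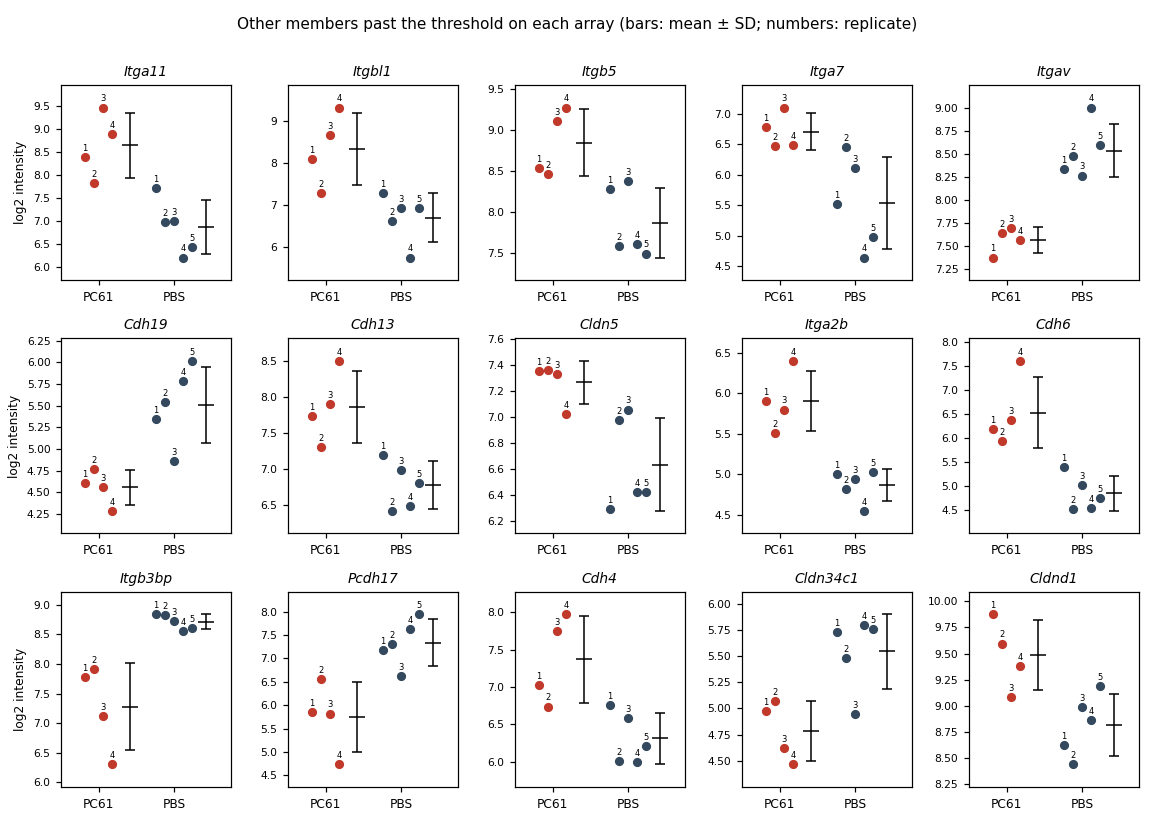
Log2 intensity (vertical axes, scaled per gene) of the 15 members outside the epithelium group that passed the threshold is shown on each PC61 and PBS array, with replicate numbers and bars for the mean ± SD. Itgav, Cdh19, Itgb3bp, Pcdh17 and Cldn34c1 lie lower in PC61 and the others higher, and PC61 replicate 4 is the highest or lowest PC61 array in 11 of the 15 genes, PC61 replicate 2 in 13.

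For 7 known pairs, chosen after values were seen, the difference of log2 intensities between the 2 chains was taken within each array. Its size depends on the brightness of each probe, so only its change between groups is read. Itgb6 and Itga7 had a named probe through PC61 alone and are the brighter there by that choice. The changes of their pairs are therefore partly set by the filter. Itgb6 minus Itgav was -0.29, -1.33, -0.01 and 1.00 in PC61, against -2.16, -3.14, -1.67, -4.37 and -3.50 in PBS, which do not overlap, and the group means differed by 2.81. Itgb5 minus Itgav was 1.16, 0.81, 1.41 and 1.71 in PC61, against -0.06, -0.90, 0.11, -1.40 and -1.11 in PBS, a change of 1.94. Both beta partners were higher and the shared alpha v chain lower in PC61, so these changes follow from the single-gene differences. The chains were placed in different groups by origin, so in whole tissue the difference need not be a balance between chains of the same cells. Itga3 and Itga11 moved by 1.97 and 2.16 against their partner Itgb1, again with no overlap of the groups. Itga7 against Itgb1 (1.55) and Itgb4 against Itga6 (1.37) moved with 1 PC61 array inside the PBS range each. Itgal against Itgb2 differed by -0.20, less than the spread in either group. The sizes depend on the probes taken. Over the combinations of detected probes, chosen after values were seen, the change ran from 1.43 to 2.81 for Itgb6 against Itgav, with no overlap in 3 of 6, and was 1.52 and 1.94 for Itgb5 against Itgav, where the groups overlapped with the second Itgav probe. It ran from 1.74 to 2.68 for Itga11, from 1.97 to 2.49 for Itga3 and from 1.55 to 2.07 for Itga7 against Itgb1, and from 1.37 to 1.92 for Itgb4 against Itga6. These changes carry no test.

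**Figure D5:**
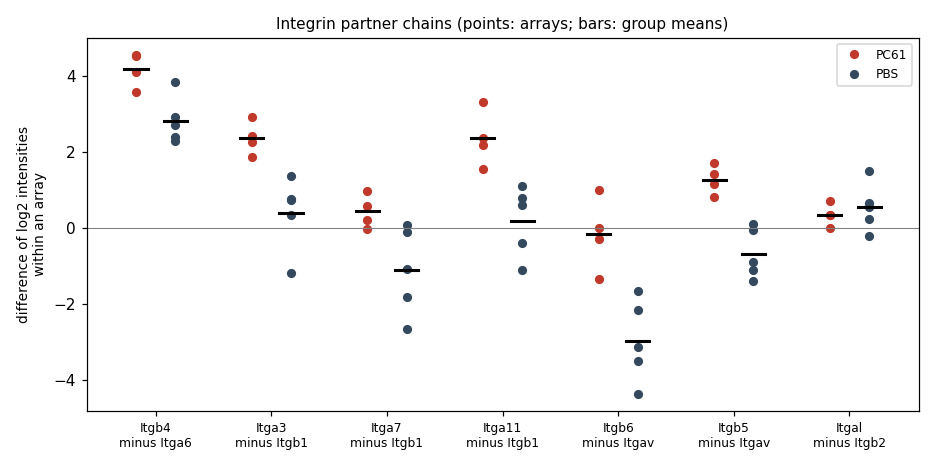
The difference of log2 intensities between 2 chains of an integrin within each array (vertical axis) is plotted for 7 pairs, with PC61 left of PBS, points for arrays and bars for group means. The PC61 points lie above all PBS points for Itga3 and Itga11 minus Itgb1 and for Itgb6 and Itgb5 minus Itgav, and the groups overlap for Itgal minus Itgb2. Itgb6 and Itga7 had a named probe through PC61 alone.

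The proteins that work with the members were read from gene lists chosen with earlier results of these data known. Their counts stand beside 15.4% of all genes tested that rose and 11.2% that fell. In the tight junction list 7 of 9 measured genes rose and 0 fell (median 1.06), among them Marveld3 (1.43 ± 0.31 SE, adjusted p = 0.014), Cgnl1 (1.46 ± 0.34 SE, adjusted p = 0.0161) and Cxadr (1.79 ± 0.48 SE, adjusted p = 0.0236). Marveld3, Ocln and Patj had a named probe through PC61 alone, where they are high, and were detected on 2, 1 and 4 of 5 PBS arrays. Of the 6 genes named through both groups 4 rose. In the cadherin linkage list 3 of 11 rose (median 0.66), Nectin4 (0.81), Nectin1 (1.13) and Ctnnd1, p120 catenin (0.71), while Ctnnb1, beta catenin, was at -0.22 (adjusted p = 0.394). Nectin4, detected on 1 of 5 PBS arrays, Nectin1 and Jup were named through PC61 alone, and of the other 8 genes 1 rose. Among 21 measured integrin linkage genes 4 rose and 1 fell (median 0.15), near the 26.5% of all genes that passed. Ptk2b, a focal adhesion kinase relative, was at 1.42 ± 0.23 (SE, adjusted p = 0.0122) and Lims2 at 1.30 ± 0.24 (SE, adjusted p = 0.0122). Fermt1, the kindlin of epithelia, rose by 1.90 ± 0.41 (SE, adjusted p = 0.0141), Fermt2, the kindlin of most other solid tissues, fell with a difference of -0.81 ± 0.22 (SE, adjusted p = 0.0257), and Fermt3, the kindlin of blood cells, was at 0.19 ± 0.30 (SE, adjusted p = 0.67).

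Of 8 measured integrin ligands 3 rose (median 0.75), the laminin chain Lamb3 (2.05 ± 0.36 SE, adjusted p = 0.0122), the leukocyte counter-receptor Icam1 (0.76 ± 0.17 SE, adjusted p = 0.0148) and fibronectin, Fn1 (1.58 ± 0.42 SE, adjusted p = 0.0226). Vcam1, the ligand of alpha 4 integrins, was at -0.29 ± 0.53 (SE, adjusted p = 0.704). It had 8.62, 8.51, 8.62 and 5.75 in PC61, where replicate 4 lay far below the others, against 8.35, 8.35, 7.63, 8.55 and 7.96 in PBS. Of the 2 measured desmosomal cadherins Dsc1 rose (1.72 ± 0.38 SE, adjusted p = 0.0141) and Dsg2 was at 1.31 ± 0.52 (SE, adjusted p = 0.0795). Of 13 transcription factors known to raise or lower Cdh1 in epithelial and mesenchymal cells 8 rose and 0 fell (median 1.35). Ovol1 (2.34 ± 0.45 SE, adjusted p = 0.0122) and Grhl2 (2.04 ± 0.44 SE, adjusted p = 0.014), known as activators of the epithelial state, rose beside Twist1 (1.40 ± 0.30 SE, adjusted p = 0.014), known from mesenchyme as a repressor of Cdh1. The E-box factors Snai1, Zeb1 and Zeb2 were at 0.36, 0.67 and -0.45 (adjusted p = 0.348, 0.0793 and 0.14) and Snai2 rose by 0.98 (adjusted p = 0.0379). The list mean ran from 0.60 to 1.66 on the PC61 arrays and -0.62 to 0.40 on the PBS arrays, with PC61 replicate 2 and PBS replicate 4 the lowest of their groups, as for the keratinocyte markers.

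For 13 members more than 1 detected probe was present, and the brightest stood for the gene. All 3 probes of Cdh3 were higher in PC61, by 2.37, 2.50 and 1.16, and all 3 of Cldn10, by 1.57, 1.82 and 1.50, each past the threshold in a fit of single probes. Both probes of Itgb4, Pcdh1, Itga11 and Cdh13 passed as higher. Of the 3 Itgb6 probes that used was at 1.84 and the dimmer ones at 1.28 (adjusted p = 0.0565) and 0.89 (adjusted p = 0.0165). The second probe of Itgb1 was at -0.90 (adjusted p = 0.0534) beside -0.38, and that of Cdh5 at -0.44 (adjusted p = 0.284) beside -0.00. Itga6 had 0.20 beside 0.37 and Itga5 -0.03 beside -0.17, with no probe of either past the threshold. The second Itgav probe was at -0.54 (adjusted p = 0.164) beside -0.97 for the brighter one, and the Itgb1bp1 probes went apart, at -0.80 and 0.36, with neither past the threshold. The authors' deposited table, on its own normalized values, has 20 members higher and 5 lower in PC61 at its Benjamini-Hochberg value under 0.05. Each member has 1 value there. Of all 17382 probes with the authors' values, 4106 were under the same threshold in either direction. Cldn5, which rose in the limma fit, did not pass there, with a Benjamini-Hochberg value of 0.0505.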

How the data were processed

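RNA of 4 PC61 and 5 PBS tissue samples was labelled with biotin and hybridised to single-colour Illumina arrays, per the labels' protocols. The labels name neither the scanner nor its software. The deposited raw table holds linear intensities of 45273 probes, and per the file headers each has a detection p-value, a score between 0 and 1. The 3 probes with a detection value outside that range were left out. The authors' second deposited table holds quantile-normalized intensities of 17382 probes, a fold ratio of group means, a test statistic (a score that was not used), and p-values with Benjamini-Hochberg values, whose test is not named in the headers. The value table of the series equals the authors' quantile-normalized intensities.

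From the raw intensities, limma 3.58.1 in R 4.3.3 corrected background with normexp by detection p (neqc, offset 16), applied quantile normalization and log2, and kept 20190 probes detected at p under 0.05 on 4 or more arrays. The platform annotation names 1 gene for 14942 probes of the authors' table, several for 8 and none for 2432, and probes outside that table are unnamed here. The probe with the highest mean stood for each of 10096 genes. PC61 was tested against PBS with lmFit and eBayes, two-sided, with Benjamini-Hochberg adjustment over all genes. The number of arrays limits the precision. A probe below detection on all arrays of a group has no measured level there. The mean of the other group was set against each array's lowest detected signal.

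Itgae was left out. The members, their groups by origin and the gene lists were chosen with earlier results of these data known. Named were all members past the threshold, at least 3 of each origin by smallest p (both of the 2 in melanoma) and the remaining members with their values, up to 3 genes of each list and 2 of each marker list by smallest p; genes named beyond these, such as Cldn7, Itgb1, Itgal, Ctnnb1, Vcam1, Fermt3, Snai1, Snai2, Zeb1 and Zeb2, Mc1r, Slc45a2, Dct, Ocln, Gp9, Pf4 and Fermt2, were chosen for their roles or after their values were seen. Promoter windows and gene positions came from RefSeq on GRCm38.p6. Alternatives were cyclic loess, 75th percentile scaling, offset 50, the authors' intensities, stricter and no detection filters, array weights, the mean of probes, a block by replicate number and leaving out each array.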

Additional observations from a re-analysis of the deposited data

Results flagged for a closer look

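Of 94 combinations of a member and a group examined for 1 array apart from the others, 2 stood out, and chance gives about 1 in 20. Cldn5 was lowest in PC61 on replicate 4, at 7.02, with the next PC61 value at 7.33, a gap that is 0.915 of the range of the group. Cldn12 was lowest in PBS on replicate 3, at 8.60, with the next PBS value at 9.07, a gap of 0.742 of the range. The cause of either was not tested.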

How the results depend on the processing

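Over all settings for the 47 members, 722 values kept direction and side of the threshold, 81 lost and 13 gained a call, and 20 changed sign, all at members that were not called. Of the 26 called members, 7 kept their call in all 17 settings other than the replicate block, and Cdh6, Pcdh17 and Itga2b in the 16 that were run for them, since they are not detected on all arrays. Array weights called 4497 genes in all, which is 44.5%, with 22 members higher and 8 lower. With probes detected on all arrays, which leaves 37 members, 17 were higher and 2 lower, while 23.7% of all genes passed. In that setting 3 broad or neural, 0 leukocyte and platelet and 1 melanoma member were called. Cyclic loess moved the median of all genes by 0.107. The replicate block called 0 genes and 0 members of any group or direction, with adjusted p-values of the called members from 0.105 to 0.169; the same-numbered arrays did not deviate together (correlations of -0.243, 0.011, 0.00365 and -0.332), so the numbers were not taken as pairs. Leaving out single arrays gave 753 to 3754 genes in all, 7 to 22 members higher and 3 to 9 lower, and called 3 to 8 broad or neural, 0 to 3 endothelium, 4 to 11 epithelium, 1 leukocyte and platelet, 1 to 2 melanoma and 1 to 6 muscle and mesenchyme members. Sign changes were in uncalled genes. Cdh5 was at 0.0995 with cyclic loess, 0.0033 with array weights, 0.123 with the replicate block and -0.123 to 0.123 without single arrays, above 0 without PC61 replicate 1, 3 or 4 or PBS replicate 4 or 5. Cldn15 was at 0.0569 with cyclic loess and -0.145 to 0.0557 without single arrays, above 0 without PC61 replicate 1 or 4 or PBS replicate 2. Itga6 was at -0.126 and Itga5 at 0.372 with array weights. Without single arrays Itga5 ran from -0.537 to 0.338 (above 0 without PC61 replicate 4), Itgal from -0.232 to 0.0312 (above 0 without PC61 replicate 4 or PBS replicate 2), Itgb2 from -0.0387 to 0.351 (below 0 without PC61 replicate 3 or PBS replicate 2) and Itgb7 from -0.000327 to 0.488 (below 0 without PC61 replicate 3). The change of Itga7 against Itgb1 was 1.03 with offset 50, and that of Itgal against Itgb2 was 0.0414 without PBS replicate 2. The causes were not tested. Probes near background, such as those of Cdh19, Cdh6, Itga2b and Cldn34c1, limit their fold changes.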
